A study of Mus musculus with 24 samples.

Results

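Prostaglandins are made in the kidney from arachidonic acid, and the genes described here are those that make, destroy and sense them. They are 10 genes chosen by name, of 27971 genes tested on the array: the cyclooxygenases Ptgs1 and Ptgs2, the terminal synthases Ptges, Ptgds and Ptgis, the catabolic enzyme Hpgd, and the receptors Ptger1, Ptger2, Ptger4 and Ptgfr. No rule on measured values was used to choose them, though earlier results of these data were known, and all 10 passed the filter on dim probes. They were followed across kidneys of megabladder mice, in which defective bladder muscle leaves urine draining poorly and the renal pelvis dilates (hydronephrosis). The 24 arrays each held the total RNA of 1 whole kidney of a male labelled young adult, which the study's methods put at no more than about a month of age, matched between genotypes. Control kidneys were mgb+/+ (n = 6), and the 18 mutant kidneys were mgb-/- and fell into 3 groups by the degree of hydronephrosis, namely mild (n = 7), moderate (n = 5) and severe (n = 6). Every mgb-/- kidney carried a hydronephrosis grade, so genotype and dilatation cannot be told apart. Whether some mice gave both of their kidneys is not stated in the labels, so p-values measure only the spread between these kidneys.

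Cyclooxygenases oxidize arachidonic acid, which phospholipases free from membranes, to an unstable intermediate that each terminal synthase turns into its own prostanoid. Ptgs1 is the constitutive enzyme, and Ptgs2 is the inducible one, transcribed within minutes of a stimulus as an immediate early gene in many cells. In the kidney Ptgs2 is known from the macula densa, the thick ascending limb and medullary interstitial cells, prostaglandin E2 is the main product of the medulla, and the receptors act on vessel tone, renin release and the handling of salt and water.

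Levels are given as log2 of the processed intensity of a probe minus the log2 of the 75th percentile of its array, so 0 is the brightness of that percentile, and levels of different probes were not set against each other. That percentile lay between 496 and 968 intensity units on the 24 arrays, and 55.1% to 70.7% of probes stood well above background on an array. Markers of the labelled tissue were bright, with Umod of the thick ascending limb at 8.24 ± 0.12 and Slc34a1 of the proximal tubule at 8.09 ± 0.14 in control kidneys (SD, n = 6). The array of severe replicate 4 stood apart. On it 800 of 31123 spots that were well above background on the other 23 arrays read more than 3 log2 units below each of those arrays, against 0 to 2 spots on any other array. The summed level of 5 adrenal genes, on the linear scale, reached 194 in mild and 186 in moderate kidneys against 0.372 in the highest control kidney, and the part of such tissue in the values below was not tested.

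Over all 18 mgb-/- kidneys 2 of the 10 genes rose, Ptgs2 by 3.19 ± 0.43 and Ptgis by 0.71 ± 0.21 on the log2 scale (± SE), and none fell. A gene passed at an adjusted p under 0.05 in limma, adjusted over all genes tested, and by that rule 13.3% of all genes passed in this comparison. In severe kidneys 3 of the 10 passed, Ptgs2, Ptgs1 and Ptgis, where 16.1% of all genes did. Ptgs2 was the gene that passed in mild kidneys (6.02% of all genes passed) and in moderate kidneys (1.2%). The median change of the 10 genes in mgb-/- against control kidneys was 0.31, beside 0.01 over all genes tested. The plots of levels and of changes show the 10 genes side by side.

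**Figure D1:**
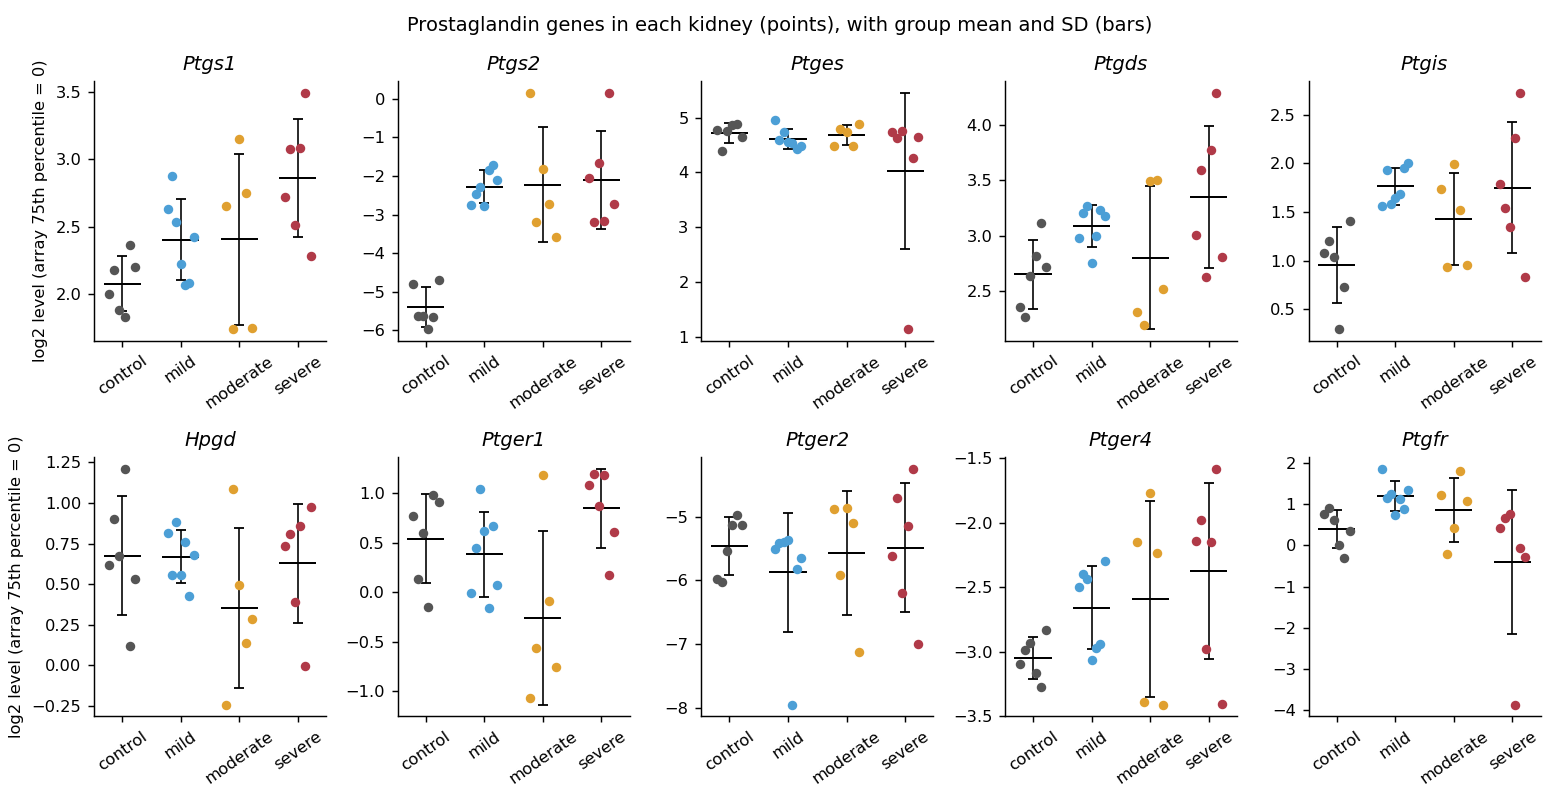
The log2 level (vertical axis, 0 at the 75th percentile of the array) of each of the 10 genes in each kidney, with 1 point a kidney and the mean and SD of each group as bars. All 18 mgb-/- kidneys lay above all 6 control kidneys for Ptgs2, while the lowest severe point of Ptges (1.15) and of Ptgfr (-3.87) came from 1 array.

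**Figure D2:**
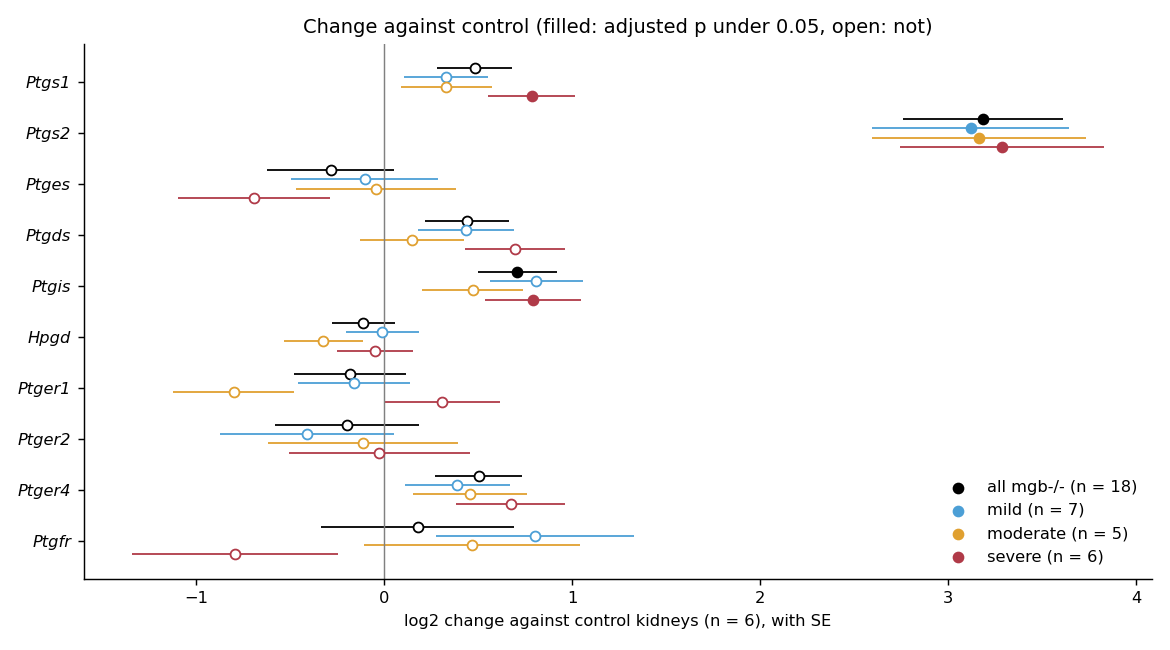
The log2 change of each gene against the 6 control kidneys (horizontal axis, bars are SE) for all mgb-/- kidneys and for each grade. Filled points had an adjusted p under 0.05, and Ptgs2 stands near 3 in every grade while the other 9 genes lie between -0.80 and 0.81.

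Ptgs2 separated the genotypes completely. In control kidneys its level was -5.97 at the lowest, -5.62 at the median and -4.69 at the highest. In mild kidneys it was -2.77, -2.29 and -1.70, and in severe kidneys -3.19, -2.39 and 0.15. The 5 moderate kidneys read 0.15, -3.20, -1.81, -2.72 and -3.58. No mgb-/- kidney overlapped the controls, and the 2 kidneys that stood highest, moderate replicate 1 and severe replicate 5, read 0.15 where the next mgb-/- kidney read -1.68. The rise was 9.11-fold over all mgb-/- kidneys (adjusted p = 0.000142). It was 8.70-fold in mild (adjusted p = 0.00190), 8.96-fold in moderate (adjusted p = 0.0146) and 9.75-fold in severe kidneys (adjusted p = 0.000847). The means of the grades lay close together, at -2.27 ± 0.42 (SD) for the mild, -2.23 ± 1.49 for the moderate and -2.11 ± 1.26 for the severe grade. The means stood in the order of the grades, but the medians did not, at -2.29 for mild, -2.72 for moderate and -2.39 for severe kidneys. The steps between the means were smaller than the SD within any of these groups.

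The Ptgs2 probe is printed 10 times on each array, and the SD among its spots ran from 0.04 to 0.46 log2 units, with a median of 0.12. The highest spot SD was in a control kidney, where the probe was dim (control mean -5.40 ± 0.52 SD). A probe counted as well above background on an array where any of its spots did. The fold sizes are therefore those of 1 way of subtracting background. The size of the change moved with the processing: the log2 change was 1.52 after normexp background correction and 1.90 in the authors' normalized table, and it passed in both (adjusted p = 0.00238 and 0.00223). Within the 3 slides, each with 2 control and 6 mgb-/- kidneys, it was 3.16, 3.54 and 2.86. The moderate call rested on 1 kidney. Without moderate replicate 1 the change was 2.57 with an adjusted p of 0.0549. The study itself lists Ptgs2 among the genes that changed in these kidneys, and reports that qPCR bore out its difference between mgb-/- and control kidneys. The array values here are therefore no independent evidence of its direction.

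The promoter of Ptgs2 is shown because it belongs to the one gene here that moved by several fold, and that of Ptgs1 because both genes encode the same enzyme activity. Both are RefSeq sequences of build GRCm38.p6 from 250 bases before to 50 bases after the annotated start, read 5′ to 3′, and of the 10 genes 8 had an entry, all but Ptgis and Ptger1. Capitals mark matches, on either strand, to 6 motifs: TGACGTCA (the cAMP response element), CGTCA (the core of that element), CACGTG (an E-box), TGANTCA (an AP-1 site), TTGCGCAA (a palindrome read by C/EBP factors) and TATAAA (the core promoter box named for its letters). A match to TGACGTCA always holds a match to CGTCA.
Ptgs2 (chr1:150099781-150100080, plus strand): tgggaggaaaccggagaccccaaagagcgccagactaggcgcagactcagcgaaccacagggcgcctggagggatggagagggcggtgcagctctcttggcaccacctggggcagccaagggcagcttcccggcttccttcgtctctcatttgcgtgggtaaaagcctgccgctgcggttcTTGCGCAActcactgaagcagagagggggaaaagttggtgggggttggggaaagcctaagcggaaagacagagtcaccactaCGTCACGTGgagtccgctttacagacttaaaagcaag
Ptgs1 (chr2:36230176-36230475, plus strand): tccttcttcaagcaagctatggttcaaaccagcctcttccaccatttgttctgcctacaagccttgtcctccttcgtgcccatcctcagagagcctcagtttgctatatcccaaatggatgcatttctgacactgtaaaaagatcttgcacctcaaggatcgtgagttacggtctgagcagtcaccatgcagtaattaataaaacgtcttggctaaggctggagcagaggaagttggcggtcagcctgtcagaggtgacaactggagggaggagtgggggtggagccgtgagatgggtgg
The Ptgs2 window held TTGCGCAA at bases -69 to -62 from the start, and CGTCA at 14 to 18 overlapping CACGTG at 17 to 22 after it. TTGCGCAA was in 0.183% of the 32851 RefSeq promoter windows of the same length, CACGTG in 7.15% and CGTCA in 20.8%. The Ptgs1 window held none of the 6 motifs. Among the other 6 windows there was 1 match to TGANTCA, in Ptgds (motif in 7.81% of all windows), and 1 to TATAAA, in Hpgd (13.6%), and TGACGTCA was in none of the 8 (1.79%). These are matches of letters, and no binding was measured.

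Immediate early genes moved beside Ptgs2. All 8 of Fos, Fosb, Egr1, Egr2, Atf3, Junb, Nr4a1 and Ier2 rose in mgb-/- kidneys, and the median of their log2 changes was 3.13. The study had already listed Fos, Egr1, Egr2, Atf3 and Nr4a1 as raised in these kidneys, so the rise of this list is no independent evidence. Their summed level on the linear scale (75th percentile = 1) was 3.22 to 7.15 in control kidneys, 26.4 to 103 in mild, 20.1 to 52.2 in moderate and 15.5 to 100 in severe kidneys, so that mgb-/- and control kidneys did not overlap. Over all 24 kidneys the gene whose level was most like that of Ptgs2 was Egr2, a zinc finger transcription factor (Pearson r = 0.91, and r = 0.67 for deviations from group means), followed by 2 transcripts that have no gene symbol here (r = 0.91 and 0.90). The part of this programme in the level of Ptgs2 was not tested.

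Ptgs1, the constitutive cyclooxygenase, was higher by a much smaller step. Its control level ran from 1.83 to 2.36 with a median of 2.09, and in severe kidneys from 2.28 to 3.49 with a median of 2.90. Of the severe kidneys 5 of 6 lay above the highest control. The 7 mild kidneys ran from 2.07 to 2.87 (median 2.42), and the moderate ones split, with 2.65, 3.15 and 2.75 above all controls and 1.74 and 1.74 below all of them. Ptgs1 rose 1.73-fold in severe kidneys (log2 change 0.79 ± 0.23 SE, adjusted p = 0.0265), while over all mgb-/- kidneys the change was 0.48 ± 0.20 (adjusted p = 0.112). The severe call was lost without control replicate 3 (adjusted p = 0.0588) or 4 (0.0541), without severe replicate 2 (0.0608) or 5 (0.0639), and after scaling each array by its median (0.106).

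Among the terminal synthases, Ptgis rose, and Ptgds and Ptges did not pass. Ptgis encodes prostacyclin synthase, known from vessel walls and smooth muscle. Its level ran from 0.30 to 1.40 (median 1.06) in control kidneys, from 1.56 to 2.01 (median 1.68) in mild and from 0.83 to 2.73 (median 1.66) in severe kidneys. The moderate kidneys read 1.74, 0.94, 1.99, 1.52 and 0.96. All 7 mild kidneys and 14 of 18 mgb-/- kidneys lay above the highest control. The change was 1.64-fold over all mgb-/- kidneys (adjusted p = 0.0280), 0.81 ± 0.25 on the log2 scale in mild kidneys (adjusted p = 0.0538) and 0.79 ± 0.26 in severe kidneys (adjusted p = 0.0394). The call over all mgb-/- kidneys was lost without control replicate 3 (adjusted p = 0.0579), 4 (0.0940) or 5 (0.0655) and under median scaling (0.0853). Without moderate replicate 2 or 3 or severe replicate 4, 5 or 6 it passed in mild kidneys. The call in severe kidneys was lost without any one of control replicates 1, 3, 4 and 5 and severe replicates 1, 2, 4 and 5 (adjusted p from 0.0557 to 0.0968), and with the slide as a block (0.0589).

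Ptgds, which makes prostaglandin D2 and also carries small lipids, read 2.27 to 3.12 in control kidneys (median 2.68), 2.75 to 3.27 in mild (3.18) and 2.62 to 4.29 in severe kidneys (3.30), and the moderate kidneys read 2.31, 2.19, 3.49, 3.50 and 2.52. Its log2 change was 0.44 ± 0.22 over all mgb-/- kidneys (adjusted p = 0.193) and 0.70 ± 0.26 in severe kidneys (adjusted p = 0.0732). Of the 18 mgb-/- kidneys 9 lay above the highest control and 1 below the lowest. In severe kidneys it passed without severe replicate 3 (adjusted p = 0.0354) or 6 (0.0337), with quantile normalization (0.0459) and in the authors' normalized table (0.0343).

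Ptges makes prostaglandin E2 downstream of Ptgs2. By the brighter of its probes it had nearly one level in every kidney but severe replicate 4. It read 4.39 to 4.88 in control, 4.43 to 4.96 in mild and 4.48 to 4.88 in moderate kidneys, and the severe kidneys read 4.74, 4.62, 4.75, 1.15, 4.26 and 4.65. The value of 1.15 came from severe replicate 4, and it set the severe change, -0.69 ± 0.40 (adjusted p = 0.250), which was -0.11 without that kidney. The spot lay among low spots: of the 57 bright spots within 5 rows and columns, 20 were low on this array, and the scanner software did not mark it as an outlier. A second Ptges probe read -1.24 on the same array, within the -1.27 to 0.08 of all 24 kidneys. That probe differed from the first in sign, with a log2 change of 0.35 ± 0.17 over all mgb-/- kidneys against -0.28 ± 0.34 for the brighter probe, and neither passed. The probes correlated with r = 0.28 over the 24 kidneys and r = -0.21 without severe replicate 4, so the even level belongs to the brighter probe alone.

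**Figure D3:**
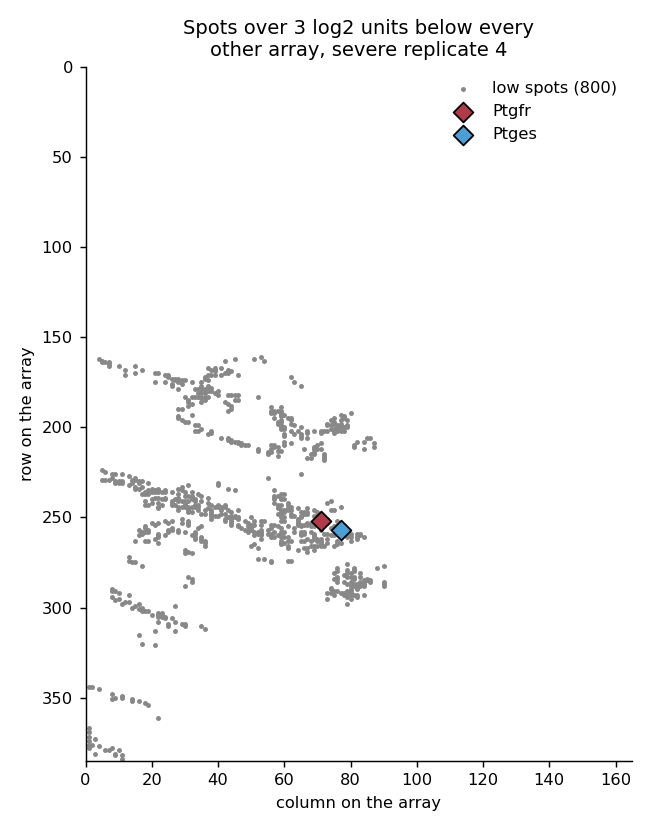
Rows and columns of the array of severe replicate 4, with a grey dot at each of the 800 spots that read more than 3 log2 units below all other 23 arrays. The spots of Ptgfr and Ptges (diamonds) both lie within the band of low spots, where 25 of 55 and 20 of 57 bright neighbours were low.

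Hpgd, which starts the breakdown of prostaglandins E2 and F2 alpha, did not pass in any comparison. Its control level ran from 0.12 to 1.21 (median 0.65), and the 18 mgb-/- kidneys ran from -0.24 to 1.09 (median 0.62), with none above the highest control. The log2 change was -0.11 ± 0.17 (adjusted p = 0.709). The 2 lowest mgb-/- kidneys for Hpgd, moderate replicate 1 (-0.24) and severe replicate 5 (-0.00), were the 2 highest for Ptgs2. Both Hpgd probes gave nearly the same change, -0.11 and -0.10, and correlated with r = 0.93 over the 24 kidneys.

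Of the receptors for prostaglandin E2, none passed. Ptger4, which raises cAMP and takes part in renin release, ran from -3.28 to -2.83 (median -3.04) in control and from -3.40 to -1.58 (median -2.15) in severe kidneys. The mild kidneys ran from -3.07 to -2.30 (median -2.50), and the moderate ones split as for Ptgs1, with -2.15, -1.77 and -2.24 above all controls and -3.39 and -3.41 below them. The log2 change was 0.50 ± 0.23 over all mgb-/- kidneys (adjusted p = 0.151) and 0.67 ± 0.29 in severe kidneys (adjusted p = 0.113), and 11 of 18 mgb-/- kidneys lay above the highest control while 3 lay below the lowest. The severe change passed without severe replicate 6 (adjusted p = 0.0220) and with normexp background correction (0.0296).

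Ptger1, the receptor that raises calcium in the collecting duct, had its lowest mean in moderate kidneys. It ran from -0.14 to 0.98 in control (median 0.68), from -0.16 to 1.04 in mild (0.45) and from 0.17 to 1.19 in severe kidneys (0.97). The 5 moderate kidneys read -1.06, -0.56, 1.18, -0.09 and -0.75, so that 3 lay below every control and 1 above. Severe and moderate kidneys differed by 1.11 ± 0.32 on the log2 scale (adjusted p = 0.260). Without moderate replicate 3 the difference was 1.47 and passed (adjusted p = 0.0295), and the change in moderate against control kidneys was -0.80 ± 0.32 (adjusted p = 0.189).

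Ptger2, which also raises cAMP, stood well above background on 11 of 24 arrays, 4 of 6 control, 2 of 7 mild, 3 of 5 moderate and 2 of 6 severe. Its log2 change was -0.20 ± 0.38 over all mgb-/- kidneys (adjusted p = 0.778), and its sign depended on the background correction. Its level fell to -7.95 in mild replicate 5, where it was below background.

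Ptgfr, the receptor for prostaglandin F2 alpha, ran from -0.30 to 0.91 in control (median 0.49) and from 0.75 to 1.87 in mild kidneys (median 1.15). The moderate kidneys read 1.22, -0.20, 0.42, 1.81 and 1.07 and the severe ones 0.42, 0.67, 0.77, -3.87, -0.07 and -0.29. Of the mild kidneys 5 of 7 lay above the highest control and of the severe ones none. The change in mild kidneys was 0.80 ± 0.53 (adjusted p = 0.417). As for Ptges, severe replicate 4 set the spread. With it, severe differed from mild kidneys by -1.59 ± 0.53 (adjusted p = 0.240). Without it that difference was -0.90 (adjusted p = 0.162), the change in severe against control kidneys was -0.10 rather than -0.79, and that in mild kidneys had an adjusted p of 0.0829.

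Between grades none of the 10 genes passed in limma. Of all genes, 0.586% passed in severe against mild kidneys, 0% in moderate against mild and 0.00715% in severe against moderate. At an unadjusted p under 0.05 there was 1 of the 10 in severe against mild kidneys beside 11.1% of all genes, 0 of 10 in moderate against mild beside 6.68%, and 2 of 10 in severe against moderate beside 10.4%, which is near that background. With 5 to 7 kidneys a grade and this background, a missed threshold does not show that the levels were alike.

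Several of the 10 genes varied together among kidneys of the same grade. Of 45 pairs, 12 had a correlation of deviations from the grade mean with an adjusted p under 0.05 over the 18 mgb-/- kidneys (two-sided permutation test with 100000 resamples, adjusted over the 45 pairs). The share over pairs of all genes was not computed, so whether this count is unusual cannot be told. Genes outside the 10 varied as closely with them. Mbp, the gene most like Ptgs1, had r = 0.95 for deviations from group means over the 24 kidneys. Ptgs1 and Ptger4 were closest, with r = 0.94 and Spearman rho = 0.88. Both had p = 1e-05, the smallest that these permutations can give, and an adjusted p of 0.000450. The relation held without the 2 kidneys farthest from the median of Ptgs1 (r = 0.92) and within each slide (r = 0.79, 0.98 and 0.92). Ptgis and Ptger4 had r = 0.83 and rho = 0.79 (permutation p = 2.0e-05 and 0.000190, adjusted p = 0.000450 and 0.00214), and Ptgs1 and Ptgis had r = 0.78 and rho = 0.75 (permutation p = 0.000190 and 0.000590, adjusted p = 0.00171 and 0.00531). Without the 2 farthest kidneys these were r = 0.75 and 0.71. On slide 1 they were weaker, at r = 0.47 and 0.13, than on slide 2 (0.98 and 0.91) and slide 3 (0.84 and 0.76). Ptgds passed with Ptgs1, Ptger4 and Ptgis as well, at r of 0.76, 0.74 and 0.74, and r was 0.47, 0.37 and -0.11 on slide 1. Ptger2, which was well above background in 7 of the 18 mgb-/- kidneys, passed with the same 3 genes at r of 0.79, 0.78 and 0.66. On slide 1 these were 0.28, 0.15 and -0.18, and the pair of Ptgis and Ptger2 had rho = 0.54 (permutation p = 0.0237, adjusted p = 0.0821) and r = 0.48 without the 2 farthest kidneys.

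Ptgs2 passed neither with Ptgs1 nor with Ptger4. It passed with Hpgd, in the opposite direction (r = -0.73, rho = -0.64, permutation p = 0.000600 and 0.00540, adjusted p = 0.00300 and 0.0279), and with Ptgis (r = 0.59, rho = 0.56, permutation p = 0.0104 and 0.0175, adjusted p = 0.0391 and 0.0657). Without the 2 kidneys farthest from the median of Ptgs2, moderate replicate 1 and severe replicate 5, these were weaker, at -0.41 and 0.35. Within slides the first was -0.86, -0.72 and -0.71, and the second 0.80, 0.86 and 0.23. Slide 3, the last of each, held neither of those kidneys. Ptges and Ptgfr had r = 0.87 (permutation p = 0.000900, adjusted p = 0.00405) but rho = 0.49 (permutation p = 0.0418, adjusted p = 0.134), and r was 0.10 without severe replicate 4.

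**Figure D4:**
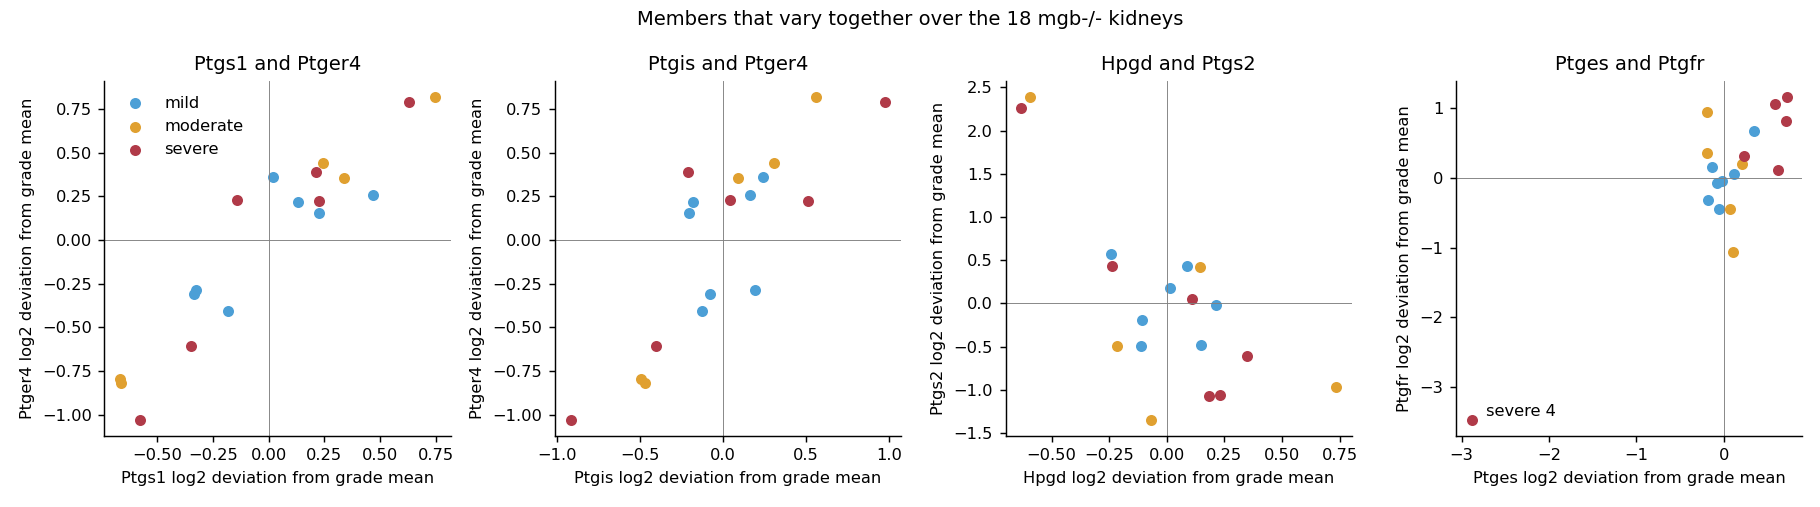
Deviations from the grade mean (log2 units, both axes) of 4 pairs of genes, with 1 point for each of the 18 mgb-/- kidneys. Ptgs1 and Ptger4 (r = 0.94) and Ptgis and Ptger4 (r = 0.83) lie along a rising line. The falling relation of Hpgd and Ptgs2 is weaker without 2 kidneys, and the relation of Ptges and Ptgfr rests on severe replicate 4.

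Markers of other cells moved with Ptgs1, Ptger4 and Ptgis and also with Ptgs2, and in RNA of a whole kidney a change in the number of cells of a type cannot be told apart from a change in RNA per cell. Over the same 18 deviations, given as a description, the summed level of 5 smooth muscle genes had r = 0.78 with Ptgs1, 0.81 with Ptger4 and 0.68 with Ptgis. The 5 tubular injury genes (Lcn2, Havcr1, Krt18, Timp1 and Spp1) had r = 0.83, 0.83 and 0.69, and the 5 proximal tubule genes r = -0.68, -0.71 and -0.67. Mast cell genes, of which 3 of 6 were tested, had r = 0.65, 0.72 and 0.67, fibroblast genes 0.50, 0.51 and 0.51, and urothelial genes 0.52, 0.43 and 0.28. With the 8 immediate early genes r was -0.25, -0.30 and -0.01. For Ptgs2 r was 0.43 with the immediate early genes and farther from 0 with several other lists. It was -0.69 for proximal tubule, 0.62 for tubular injury, -0.59 for macula densa and thick limb, 0.59 for fibroblast and 0.57 for smooth muscle. The macula densa and thick limb sum held 4 of its 5 genes, without Nos1, so it does not measure the macula densa by itself. The 3 mast cell genes summed to at most 1.77 in control and 4.15 in severe kidneys. None of the 3 passed in limma over all mgb-/- kidneys (1 at an unadjusted p under 0.05). The fibroblast genes summed to at most 100.2 in control kidneys, against 131, 219 and 321 at the highest of the mild, moderate and severe grades. Of these genes Col1a1 and Dcn were counted as well above background on 5 of the 6 severe arrays. A spot left out as an outlier adds nothing to a sum, which lowers that sum and touches its r. Of the urothelial genes 2 of 8 rose over all mgb-/- kidneys and 7 of 8 in severe kidneys, where they summed to 80.2 to 251 against 15.6 to 27.1 in control kidneys. Of the smooth muscle genes 2 of 5 rose in mgb-/- kidneys, Acta2 by 1.20 and Tagln by 1.28 on the log2 scale, and their summed level, which holds the low Myh11 spot of severe replicate 4, ran from 14.3 to 27.1 in control, 25.7 to 48.8 in mild, 15.8 to 94.6 in moderate and 35.3 to 107 in severe kidneys. The tubular injury genes, 2 of 5 of which rose, summed to 28.3 to 43.4 in control, 48.9 to 89.3 in mild, 39.4 to 312 in moderate and 70.0 to 363 in severe kidneys. That sum holds Krt18, which the study lists among urothelial genes, so it does not measure tubules alone. The mean log2 level of Krt18 was 4.02 in control and 6.45 in severe kidneys. The proximal tubule genes, of which 0 of 5 passed in limma over all mgb-/- kidneys (2 at an unadjusted p under 0.05) and 1 fell in severe kidneys, summed to 665 to 789, 569 to 727, 485 to 943 and 190 to 748. None of 5 endothelial and 7 macrophage and leukocyte genes passed in limma over all mgb-/- kidneys (1 and 2 at an unadjusted p under 0.05). In that comparison 29.0% of all genes had an unadjusted p under 0.05, which is the background for each such count of marker genes. The part of these cells in the levels of the prostaglandin genes was not tested.

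The genes most like the other members over the 24 kidneys were not those of Ptgs2. For Ptgis it was Plat, tissue plasminogen activator (r = 0.92, and 0.92 for deviations from group means). A transcript that has no gene symbol here and Cpne7 followed (r = 0.91 and 0.90). For Ptgs1 they were Mbp, Tbc1d2 and Stap2 (r = 0.95, 0.95 and 0.94), and for Ptger4 Agap2, Mal2 and Cd24a (r = 0.94, 0.94 and 0.94).

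The rest of the pathway moved in both directions, as the plot of the other pathway genes shows. The spots of Pla2g15 and Ptgr1 were among the low ones of severe replicate 4, and neither gene passed. Of 38 such genes tested, 8 passed in mgb-/- against control kidneys, 4 higher and 4 lower, beside the 13.3% of all genes, and 9 passed in severe kidneys, 4 higher and 5 lower, beside 16.1%. Among 8 other synthases, Cbr1, a carbonyl reductase that can turn prostaglandin E2 into F2 alpha, rose by 1.94 ± 0.43 on the log2 scale (adjusted p = 0.00632), and Cbr3, a close paralog of Cbr1, by 0.77 ± 0.23. Akr1c18, an aldo-keto reductase that makes prostaglandin F2 alpha and inactivates progesterone, fell by 1.82 ± 0.51 (adjusted p = 0.0222). In mild kidneys Cbr1 rose by 2.40 and Akr1c18 fell by 2.43, and neither passed between grades. The Cbr1 level was 3.25 to 3.79 in control and 4.03 to 6.50 in mild kidneys, and that of Akr1c18 was 4.90 to 5.40 in control and 1.92 to 4.99 in mild kidneys. In moderate and severe kidneys Cbr1 read 3.14 to 5.96 and 3.57 to 6.31, and Akr1c18 2.39 to 5.49 and 1.71 to 5.04. Both genes thus overlapped the controls in these grades. The call for Akr1c18 over all mgb-/- kidneys was lost without control replicate 3 (adjusted p = 0.0558) and in 2 of 11 other settings.

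**Figure D5:**
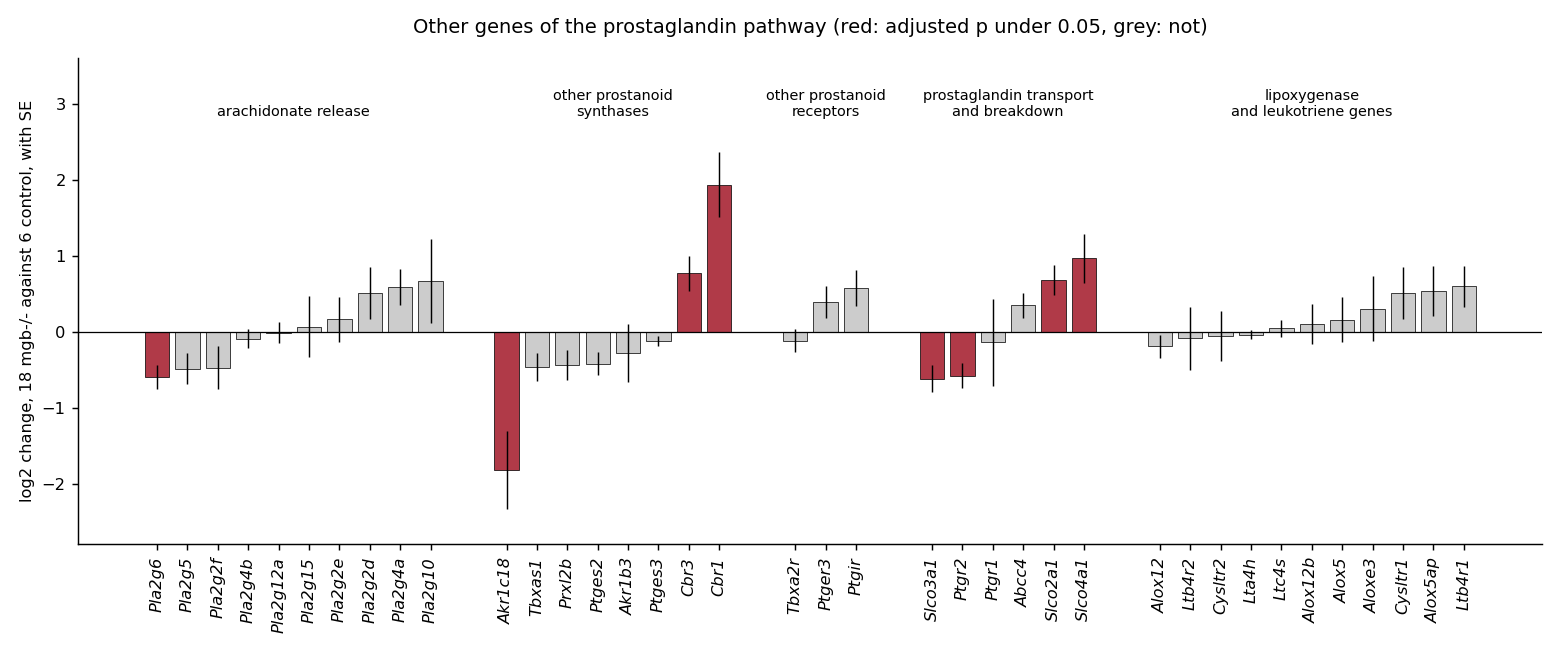
The log2 change of the 38 other pathway genes tested in the 18 mgb-/- against the 6 control kidneys (vertical axis, bars are SE), by list. Red bars passed at an adjusted p under 0.05, and Cbr1 and Akr1c18 stand apart at 1.94 and -1.82.

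Of 10 phospholipases that free arachidonic acid, Pla2g6, a calcium-independent one, fell by 0.60 (adjusted p = 0.0170). In severe kidneys Pla2g4a, the cytosolic enzyme that responds to calcium, rose by 0.92 ± 0.27 (adjusted p = 0.0258) and Pla2g5 fell by 0.77 ± 0.23 (adjusted p = 0.0297), and Ptges2, another prostaglandin E synthase, fell by 0.58 (adjusted p = 0.0394). Among 6 genes of transport and breakdown, the prostaglandin transporter Slco2a1 rose by 0.69 (adjusted p = 0.0249) and Slco4a1 by 0.97 (adjusted p = 0.0499), while Slco3a1 fell by 0.62 and Ptgr2, a reductase that acts after Hpgd, fell by 0.58. The Slco4a1 call was lost without any one of 18 of the 24 kidneys and in 6 of 11 other settings, and in severe kidneys, where the gene rose by 1.35 (adjusted p = 0.0218), without any one of 3 kidneys. Cbr1 and Pla2g6 kept their calls over all mgb-/- kidneys in each setting tested at that threshold. The calls of Cbr3, Slco2a1, Slco3a1 and Ptgr2 were lost without any one of 4, 4, 2 and 3 kidneys. They were also lost in 3, 3, 2 and 1 of 11 other settings. In severe kidneys those of Pla2g4a, Pla2g5 and Ptges2 were lost without any one of 4, 7 and 8 kidneys, and in 2, 2 and 6 of 12 other settings. Of 3 other receptors measured, Ptgir, which binds prostacyclin, rose by 0.81 ± 0.27 in severe kidneys (adjusted p = 0.0416), a call lost in 8 of 12 other settings and without any one of 8 kidneys (adjusted p up to 0.137). None of the 11 lipoxygenase and leukotriene genes passed in limma in either comparison. At an unadjusted p under 0.05 there were 1 and 2 of them, beside 29.0% and 31.8% of all genes. The severe count for the 38 genes was the least stable, at 1 without severe replicate 1 or without severe replicate 2, 4 without severe replicate 5 or control replicate 3, 5 without control replicate 4 or 5, and 14 without severe replicate 6. Over all mgb-/- kidneys it was 2 without control replicate 3, 4 without control replicate 1 or 4, and 5 without control replicate 2.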

How the data were processed

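Total RNA of 24 whole kidneys was measured on 1-colour Agilent 60-mer arrays, 1 kidney an array, on 3 slides of 8 arrays. The authors scanned the arrays and deposited, for each spot, the intensity given by Agilent Feature Extraction 10.10 per the submitters' processing notes. The processed intensity deposited by the authors is background-subtracted and corrected for spatial trend within an array, and the authors' normalized table of intensity values served as an alternative. From there, log2 processed intensity minus that of the 75th percentile of its array was averaged over spots of a probe without control spots and outlier spots, and no spot was saturated. Of 55681 probes, 26762 were named through RefSeq accessions, and 38848 were kept, those marked by the scanner software as well above background on 5 or more arrays. The brightest probe stood for a gene, which left 27971 genes tested, those without a symbol counted under their accession. The number of arrays limits the precision.

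All 4 groups were fitted together in limma 3.58.1 (R 4.3.3, lmFit and eBayes) with Benjamini-Hochberg adjustment over all genes tested. For all mgb-/- against control kidneys the fit had these 2 groups. Permutation tests and figures used Python 3.11.15 with numpy 2.4.6, pandas 2.3.3, scipy 1.17.1 and matplotlib 3.10.9. Both tests were checked on simulated data. Slides were the only batch in the files, and each held 2 control and 6 mgb-/- kidneys. The genes and lists were chosen with earlier results of these data known. The text names all 10 genes, each other pathway gene that passed, and, for the 4 of the 10 with the lowest p, the 3 genes with the highest correlation over the 24 kidneys. Alternatives covered scaling by the median, quantile normalization, normexp background correction (offset 50), the filter, a mean over the probes of each gene, slide and replicate number as blocks, array weights, thresholds, the kidneys in the fit and each kidney left out in turn.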

Additional observations from a re-analysis of the deposited data

Results flagged for a closer look

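In 3 of 40 sets of a gene and a group, 1 kidney lay far from the others of its group by Dixon's criterion, which chance meets in about 1 of 20 such sets. Ptges read 1.15 in severe replicate 4, where the next severe kidney read 4.26. Ptgfr read -3.87 in the same kidney, where the next read -0.29. Both spots lay in a stretch of that array, rows 161 to 384 and columns 1 to 90, that held its 800 low spots. Ptger2 read -7.95 in mild replicate 5, where the next mild kidney read -5.83. The part of the array in these values was not tested.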

How the results depend on the processing

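Ptgs2 passed in mgb-/- against control kidneys under each alternative that gave a test, and its log2 change ran from 1.52 (normexp) to 3.54 (within 1 slide, a value with no test). The counts of the 10 genes that passed moved as follows. Over all mgb-/- kidneys the 2 genes became 1 under median scaling, with the replicate block, with a 2-fold minimum and without the 3 kidneys with the highest or lowest share of probes above background (chosen after seeing the data), and 4 with array weights. In severe kidneys the 3 became 1 under the first 4 of these settings, 4 with quantile normalization, the authors' table or an adjusted p under 0.1 (Ptgds added), and 2 with no filter, slide as a block, array weights or only the groups compared (Ptgis lost), while normexp had Ptger4 in place of Ptgis. In mild kidneys the 1 became 2 with normexp, with the filter on all 24 arrays, at an adjusted p under 0.1 and without the 3 kidneys, 3 with array weights and 4 with only the groups compared. In moderate kidneys the 1 became 2 with array weights. Of the 38 other pathway genes, the 8 over all mgb-/- kidneys became 5 under median scaling, 2 with the replicate block, 15 with array weights, 2 with a 2-fold minimum and 5 without the 3 kidneys, and the 9 in severe kidneys became 4 with the replicate block, 14 at an adjusted p under 0.1, 3 with a 2-fold minimum, 4 with only the groups compared and 5 without the 3 kidneys. The cause was not tested, apart from the thresholds and the fewer kidneys. Leaving out each kidney in turn gave 1 to 2 of the 10 genes over all mgb-/- kidneys, 1 to 2 in mild, 0 to 1 in moderate and 1 to 5 in severe kidneys, 0 to 0 in severe and in moderate against mild, 0 to 1 in severe against moderate, 2 to 10 and 1 to 14 of the other pathway genes, and 11 to 15 correlated pairs. Over all mgb-/- kidneys 2 values turned in sign, Ptger2 to 0.11 with normexp and Ptges to 0.034 with the mean of its probes. Of 555 values of single genes under these settings, 465 kept direction and side of the threshold, 74 lost and 14 gained the call. Median scaling moved the median change of all genes to -0.15. Kidneys of the same number shared only a number: of 33 pairs across groups, 10 correlated above 0.1 in their deviations (-0.55 to 0.65), and with the replicate block Ptgis had an adjusted p of 0.0794 and Ptgs1 in severe kidneys 0.0635. Ptger2 has no value with the filter on all arrays. Dim probes such as Ptger2 limit what could be detected.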
